A study of Homo sapiens with 12 samples.

Results

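Transcripts of 9 genes of the integrated stress response were followed across all 12 libraries of the series. These were ATF4, ATF5, DDIT3, TRIB3, ASNS, CHAC1, PPP1R15A, PSAT1 and SLC7A11, chosen by name as the rows of the deposited table whose Ensembl identifiers carry those symbols in GENCODE release 44. All 9 were among the 26058 genes listed, and all 9 passed the filter on low values (a mean of at least 0.5 RPKM, a read count divided by exon length and library size). The cells were HEK293, an established human embryonic kidney line, either unmodified (WT) or with both catalytic subunits of AMP-activated protein kinase, encoded by PRKAA1 and PRKAA2, knocked out by CRISPR (AMPK KO). Every culture was starved of serum for 24 h. In each line, 1 group received DMSO alone, 1 received DMSO and then epidermal growth factor (DMSO+EGF), and 1 received cordycepin and then EGF (cordycepin+EGF). Cordycepin, an adenosine analogue lacking the 3' hydroxyl group, was given at 25 µM for 20 min before EGF, which acted for 30 min. DMSO, the solvent, was at 0.025% v/v in all groups. The labels give the EGF concentration as 15, with nM in one field and µM in another, and the length of the DMSO-only treatment as 50 min in one field and 20 min in another. Each of the 6 groups held 2 libraries, numbered 2 and 3, which the study calls biological replicates. Both lines were obtained from the same other laboratory. There was 1 AMPK KO line, and no group received cordycepin without EGF. A difference between lines therefore cannot be told apart from any other difference between these cultures.

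The integrated stress response is the programme by which several kinases, each sensing a different stress, phosphorylate the translation initiation factor eIF2alpha. General protein synthesis then slows while the ATF4 mRNA is translated more, and the ATF4 protein switches on genes for amino acid supply, redox balance, feedback and, under lasting stress, cell death. Because ATF4 is controlled largely at translation, its mRNA level is a poor guide to its protein, and the mRNAs of its targets are the usual readout in RNA data. AMPK, a sensor of cellular energy, and cordycepin, which cells convert to the corresponding nucleotides, both touch nucleotide and energy metabolism.

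ATF4 binds, with C/EBP partners, to composite sites of the form TGATGNAA, and related factors bind the cyclic AMP response element TGACGTCA. Both were searched on either strand in RefSeq promoters of build GRCh38.p14, each running from 250 bases before to 50 bases after a transcription start. Of the 9 genes, 8 had an entry, with 15 promoters between them, and SLC7A11 had none. TGATGNAA occurred in 2 of these 8 genes, ASNS and CHAC1, against 4.46% of the 27305 genes with a promoter in the set. Counted by promoter it was in 2 of 15, against 3.62% of 35116. TGACGTCA occurred in 1 of the 8, PPP1R15A, against 2.25% of genes, and in 1 of the 15 promoters, against 1.85%. The matches are shown 5' to 3' on the strand of the gene because they are the only places in these windows with the letters of the best-known ATF4-family sites. Capitals mark the motif, and the CHAC1 match is in the reverse complement. Their first motif bases lay 68, 209 and 58 bases before the RefSeq start used in ASNS, CHAC1 and PPP1R15A. The matches lie within the GENCODE gene bounds given below, which begin further upstream than these RefSeq starts. A match is a description of the letters, not evidence of binding.
ASNS, chr7:97872458-97872487, minus strand: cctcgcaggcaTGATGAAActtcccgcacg
CHAC1, chr15:40953251-40953280, plus strand: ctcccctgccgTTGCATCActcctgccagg
PPP1R15A, chr19:48872352-48872381, plus strand: gcctctcttcgTGACGTCAgcacgccgggc

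Whole reads could be recovered from the RPKM values, and the libraries held between 4005376 reads, in WT DMSO replicate 3, and 26430085 reads, in WT cordycepin+EGF replicate 2, with 12673830 the next lowest. WT DMSO replicate 3 had 1170 listed genes without a read, against 3 to 127 in the others, and the 2 WT DMSO libraries were the least alike of any replicate pair (Pearson r = 0.918 across genes, against 0.961 to 0.977). PRKAA1 was at 11.2 to 21.9 RPKM in WT and 7.03 to 8.51 RPKM in AMPK KO, and PRKAA2 at 6.78 to 12.1 and 5.39 to 7.43 RPKM, so transcripts of both targeted genes remained and the ranges of PRKAA2 overlapped. EGR1, an immediate early gene induced by EGF, was at 2.17 to 2.64 RPKM in the 4 DMSO libraries and 106 to 230 RPKM in the 4 DMSO+EGF libraries. Of 7 markers of HEK293 cells, VIM, NEFL, KRT8 and KRT18 were expressed at 8.0 RPKM and upwards, while PAX2, LHX1 and NEFM had means of 0.465, 0.676 and 0.117 RPKM. The leukocyte marker PTPRC did not exceed 0.061 RPKM, COL1A1 of fibroblasts was at 0.354 to 1.21 RPKM, and ALB, HBB and PECAM1 were not listed. The samples are bulk RNA, in which fewer cells expressing a gene and less RNA per cell cannot be told apart.

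Levels differed widely between the 9 genes on the RPKM scale, which allows for length. ATF4 averaged 175 RPKM and PSAT1 63.2 RPKM over the 12 libraries, while the other 7 averaged between 2.79 RPKM (ASNS and CHAC1) and 9.98 RPKM (SLC7A11). Across libraries, the highest value was 4.15 times the lowest for CHAC1 and 3.55 times for DDIT3, but 1.85 times for ASNS and PPP1R15A. The least covered values rested on few reads, with 23 for DDIT3 and 24 for CHAC1, both in WT DMSO replicate 3. Pseudogenes of these members, whose reads could be split with them, were listed at means of 4.19 RPKM (ATF4P3), 2.47 RPKM (ATF4P4), 2.24 RPKM (PSAT1P3) and 1.94 RPKM (ASNSP1). Values below are given for replicates 2 and 3 in that order. They are deposited RPKM, without further scaling.

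**Figure D1:**
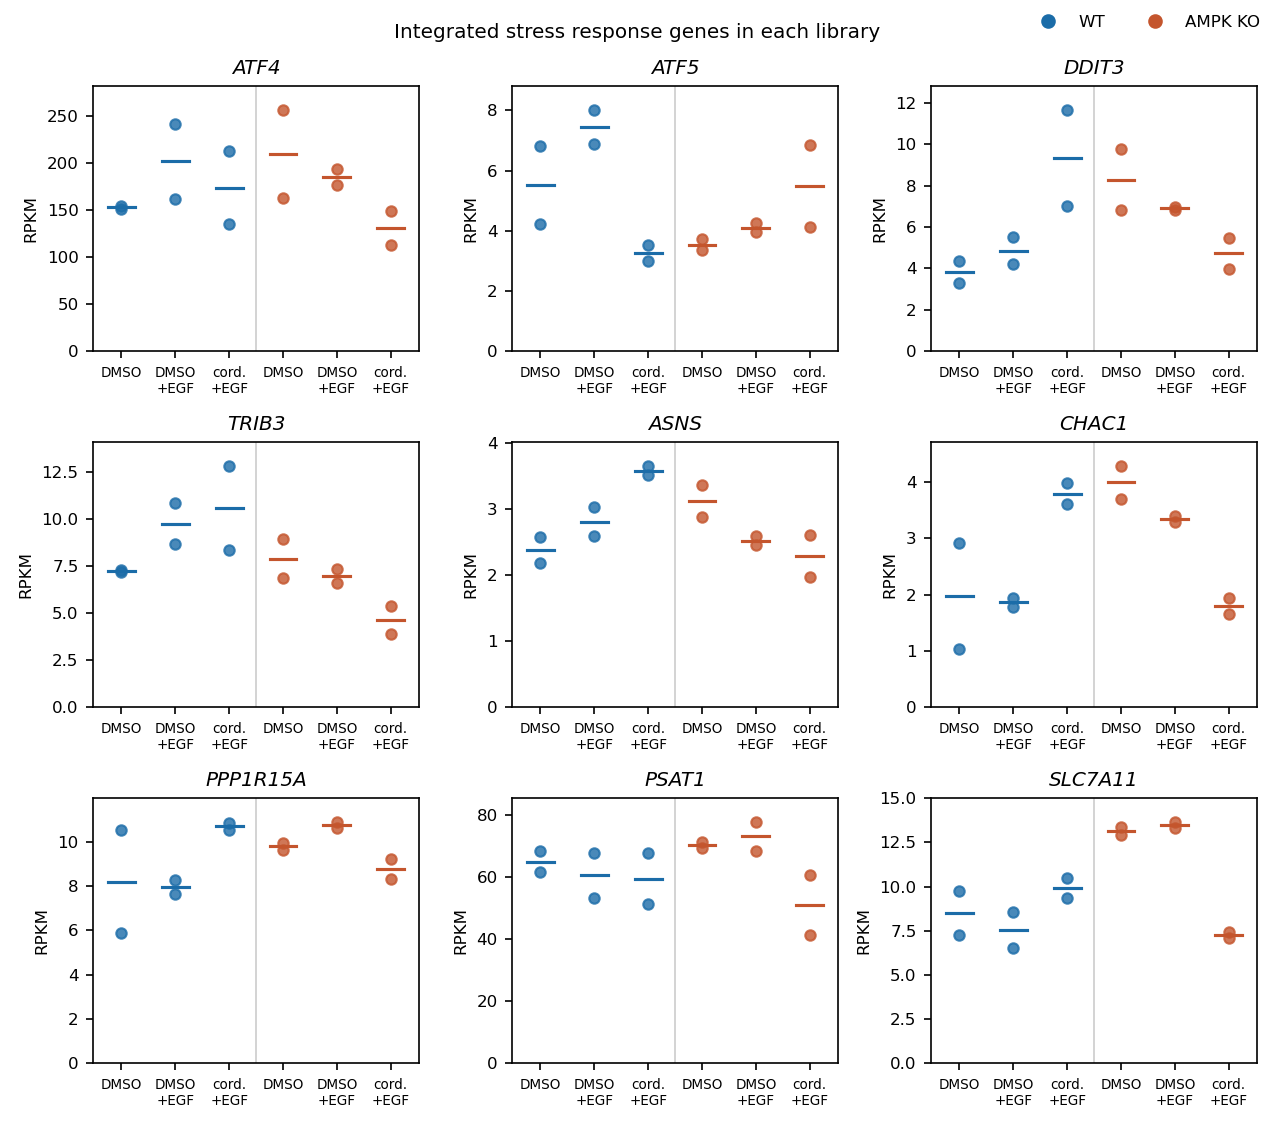
RPKM of each of the 9 genes (vertical axes, linear, starting at 0) in the 6 groups (horizontal axes), with 1 point per library, 2 per group, and a bar at their mean; blue is WT and orange AMPK KO. SLC7A11 in AMPK KO sits at 12.9 to 13.7 RPKM in the 4 libraries without cordycepin and at 7.09 and 7.46 RPKM with it.

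The transcription factors came first. ATF4, the central activator of the response (chromosome 22, 39519695 to 39522683, plus strand, GRCh38), was at 154 and 151 RPKM in WT DMSO, 162 and 241 RPKM in WT DMSO+EGF and 135 and 212 RPKM in WT cordycepin+EGF. In AMPK KO it was at 163 and 256 RPKM in DMSO, 193 and 177 RPKM in DMSO+EGF and 113 and 149 RPKM in cordycepin+EGF. Both AMPK KO cordycepin+EGF libraries were below the other 10 except for 1 WT cordycepin+EGF library at 135 RPKM, and the 5 other groups overlapped their neighbours in the order of their means.

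ATF5, a paralogue of ATF4 that is likewise controlled by translation (chromosome 19, 49928702 to 49933935, plus strand), was at 6.82 and 4.21 RPKM in WT DMSO, 8.01 and 6.89 RPKM in WT DMSO+EGF and 3.01 and 3.51 RPKM in WT cordycepin+EGF. AMPK KO gave 3.35 and 3.73 RPKM in DMSO, 4.25 and 3.96 RPKM in DMSO+EGF and 4.13 and 6.85 RPKM in cordycepin+EGF. WT DMSO+EGF was the highest group and, before scaling, did not overlap the next, WT DMSO (6.89 against 6.82 RPKM at the nearest). WT cordycepin+EGF was the lowest and overlapped AMPK KO DMSO. ATF5 shares 565 exon bases with NUP62, a nuclear pore gene on the opposite strand that was at 11.9 to 16.3 RPKM, and whether counting used the strand is not given in the sources used here.

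DDIT3, which encodes the pro-apoptotic factor CHOP (chromosome 12, 57516588 to 57521737, minus strand), was at 3.28 and 4.37 RPKM in WT DMSO, 4.19 and 5.54 RPKM in WT DMSO+EGF and 7.0 and 11.6 RPKM in WT cordycepin+EGF. Its AMPK KO values were 6.81 and 9.75 RPKM in DMSO, 6.8 and 6.98 RPKM in DMSO+EGF and 5.49 and 3.96 RPKM in cordycepin+EGF. The order of the groups was therefore opposite in the 2 lines, with cordycepin+EGF highest in WT and lowest in AMPK KO. DDIT3 shares 355 exon bases with MARS1, the methionyl-tRNA synthetase gene on the opposite strand, which was at 30.4 and 13.04 RPKM in WT DMSO, 30.5 and 36.5 RPKM in WT DMSO+EGF and 14.7 and 18.2 RPKM in WT cordycepin+EGF. In AMPK KO, MARS1 was at 10.8 and 11.7 RPKM in DMSO, 15.7 and 11.98 RPKM in DMSO+EGF and 15.3 and 26.7 RPKM in cordycepin+EGF. The 2 genes thus differed in opposite directions in both cordycepin comparisons, and reads from the shared bases cannot be told apart without strand.

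Next came the genes of negative feedback. TRIB3, a pseudokinase that restrains ATF4 and CHOP (chromosome 20, 362835 to 397559, plus strand), was at 7.28 and 7.17 RPKM in WT DMSO, 8.64 and 10.8 RPKM in WT DMSO+EGF and 8.32 and 12.8 RPKM in WT cordycepin+EGF. AMPK KO libraries held 6.83 and 8.91 RPKM in DMSO, 6.57 and 7.35 RPKM in DMSO+EGF and 3.9 and 5.38 RPKM in cordycepin+EGF. The 2 AMPK KO cordycepin+EGF libraries were the lowest of the 12.

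PPP1R15A, also called GADD34, directs a phosphatase to eIF2alpha and so ends the response (chromosome 19, 48872212 to 48876059, plus strand). It was at 5.88 and 10.5 RPKM in WT DMSO, 8.3 and 7.64 RPKM in WT DMSO+EGF and 10.9 and 10.6 RPKM in WT cordycepin+EGF. Without AMPK it was at 9.63 and 9.96 RPKM in DMSO, 10.6 and 10.9 RPKM in DMSO+EGF and 9.24 and 8.31 RPKM in cordycepin+EGF. The 2 WT DMSO libraries spanned most of the range of all 12.

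The amino acid genes followed. ASNS, asparagine synthetase (chromosome 7, 97851677 to 97872542, minus strand), was at 2.18 and 2.59 RPKM in WT DMSO, 2.6 and 3.03 RPKM in WT DMSO+EGF and 3.52 and 3.65 RPKM in WT cordycepin+EGF. In AMPK KO its levels were 2.88 and 3.37 RPKM in DMSO, 2.6 and 2.46 RPKM in DMSO+EGF and 2.61 and 1.97 RPKM in cordycepin+EGF. WT cordycepin+EGF was the highest group and stood clear of the next. ASNS shares 2415 exon bases with a long non-coding gene on its own strand, ENSG00000284707, at 0.636 to 1.98 RPKM, so part of its reads may be assigned there.

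PSAT1, a phosphoserine aminotransferase of serine synthesis (chromosome 9, 78297125 to 78330093, plus strand), was at 61.6 and 68.2 RPKM in WT DMSO, 53.2 and 67.7 RPKM in WT DMSO+EGF and 51.3 and 67.6 RPKM in WT cordycepin+EGF. The AMPK KO libraries gave 71.2 and 69.4 RPKM in DMSO, 77.6 and 68.4 RPKM in DMSO+EGF and 41.1 and 60.7 RPKM in cordycepin+EGF. Before scaling, the 4 AMPK KO libraries without cordycepin were above all 8 others, at the nearest by 68.38 against 68.239 RPKM. This does not hold after the upper-quartile scaling used in the fits below. There WT DMSO replicate 3 was above AMPK KO DMSO replicate 3.

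SLC7A11, the cystine and glutamate exchanger that supplies cysteine for glutathione (chromosome 4, 138164097 to 138242349, minus strand), was at 7.26 and 9.73 RPKM in WT DMSO, 6.5 and 8.57 RPKM in WT DMSO+EGF and 10.5 and 9.38 RPKM in WT cordycepin+EGF. The AMPK KO values were 13.4 and 12.9 RPKM in DMSO, 13.7 and 13.3 RPKM in DMSO+EGF and 7.46 and 7.09 RPKM in cordycepin+EGF. The 4 AMPK KO libraries without cordycepin were above all others, and those with cordycepin lay within the range of WT DMSO+EGF. An antisense gene, SLC7A11-AS1, shares 865 exon bases with it and did not exceed 0.686 RPKM.

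CHAC1, which degrades glutathione (chromosome 15, 40952962 to 40956512, plus strand), was at 1.03 and 2.91 RPKM in WT DMSO, 1.94 and 1.78 RPKM in WT DMSO+EGF and 3.6 and 3.98 RPKM in WT cordycepin+EGF. In AMPK KO it was at 4.28 and 3.7 RPKM in DMSO, 3.28 and 3.39 RPKM in DMSO+EGF and 1.93 and 1.65 RPKM in cordycepin+EGF. Each cordycepin+EGF group was separated from its DMSO+EGF control, upwards in WT and downwards in AMPK KO.

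Comparisons were made with limma on log2(upper-quartile-scaled RPKM + 0.5) in 1 fit to all 12 libraries, and p-values were adjusted by Benjamini-Hochberg over the 22067 genes tested. Log2 differences below are on that scale, which understates those of low genes, and each is followed by its standard error (SE). Separation of libraries between groups was counted on the deposited RPKM, before upper-quartile scaling, for the members and for all genes alike. Near ties can change with that scaling. A gene was taken to have changed where the adjusted p was under 0.05. The cordycepin comparisons and the comparison of the lines in DMSO+EGF use the same DMSO+EGF libraries and are not independent of each other.

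The first comparison asked whether EGF alone moved these transcripts. None of the 9 passed the test in either line with limma (0.0227% of all genes did in WT and 0.0136% in AMPK KO), none reached an unadjusted p under 0.05 (9.72% and 2.42% of all genes), and none passed with voom on the recovered reads. In WT, log2 differences ran from -0.19 ± 0.163 (SE) for SLC7A11 to 0.41 ± 0.255 for ATF5, with a 95% interval of -0.172 to 0.985 for ATF5. In AMPK KO they ran from -0.25 ± 0.171 for ASNS to 0.20 ± 0.255 for ATF5. In deposited RPKM, ATF4, ATF5, TRIB3 and ASNS were higher in both WT DMSO+EGF libraries than in both WT DMSO libraries. That is 4 of 9, against 20.5% of all genes. After upper-quartile scaling the 2 groups overlapped for ATF5 and ASNS, and the share of all genes on that scale was not computed. The median over the 9 genes was 0.18 in WT and -0.13 in AMPK KO, beside 0.016 and 0.006 over all genes tested. The difference between the lines in the EGF effect was tested for each gene and none passed with limma or voom (limma called 0.0% of all genes), none reached an unadjusted p under 0.05 (8.69% of all genes), and the values ran from -0.52 ± 0.311 for TRIB3 to 0.23 ± 0.23 for SLC7A11.

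The second comparison asked what cordycepin given before EGF did, against DMSO+EGF. In WT, 5 of the 9 transcripts were higher in both cordycepin+EGF libraries than in both controls (25.7% of all genes were), namely DDIT3, ASNS, CHAC1, PPP1R15A and SLC7A11. ATF5 alone was lower in both, where 27.8% of all genes were. None passed the test at an adjusted p under 0.05 with limma (0.00453% of all genes did), while 4 of 9 reached an unadjusted p under 0.05 (16.0% of all genes), and with voom on the recovered reads ATF5 passed (voom called 4.12% of all genes). CHAC1 was higher by 0.90 ± 0.311 (limma adjusted p = 0.273) and DDIT3 by 0.88 ± 0.268 (limma adjusted p = 0.267). The 95% intervals, 0.194 to 1.6 for CHAC1 and 0.278 to 1.49 for DDIT3, show how loosely 2 libraries a group fix these sizes. PPP1R15A was higher by 0.45 ± 0.213, SLC7A11 by 0.43 ± 0.163 and ASNS by 0.34 ± 0.171. ATF5 was at -1.04 ± 0.255 (limma adjusted p = 0.262), while its opposite-strand neighbour NUP62 was at -0.09 ± 0.126. For the other 3 genes the values were -0.18 ± 0.285 for ATF4, 0.13 ± 0.22 for TRIB3 and 0.02 ± 0.201 for PSAT1. MARS1, which overlaps DDIT3, was at -0.96 ± 0.368. With a library left out, DDIT3 ranged from 0.55 to 1.22 and SLC7A11 from 0.25 to 0.6. The median over the 9 genes was 0.34, beside 0.033 over all genes.

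In AMPK KO cells the same comparison gave lower values for 8 of the 9 genes, the exception being ATF5. Both cordycepin+EGF libraries were below both controls for 7 genes, where 30.0% of all genes were, and above them for none, where 29.2% were. The 2 genes that overlapped were ATF5 and ASNS. None passed the test with limma (0.471% of all genes did), 4 reached an unadjusted p under 0.05, all lower (10.1% of all genes), and SLC7A11 passed with voom, which called 5.95% of all genes. SLC7A11 came nearest with limma, at -0.80 ± 0.163, a ratio of 0.573 on this scale, with a 95% interval of -1.17 to -0.434 and a limma adjusted p of 0.0629. CHAC1 was at -0.71 ± 0.311, TRIB3 at -0.51 ± 0.22 and PSAT1 at -0.49 ± 0.201, the other 3 with an unadjusted p under 0.05. DDIT3 was at -0.47 ± 0.268, ATF4 at -0.46 ± 0.285, PPP1R15A at -0.24 ± 0.213 and ASNS at -0.09 ± 0.171. ATF5 was at 0.39 ± 0.255, and MARS1 at 0.59 ± 0.368. Leaving out 1 of the 2 cordycepin+EGF libraries at a time moved several of these values by over 1.5 times, to between -0.76 and -0.22 for PSAT1, -0.71 and -0.31 for TRIB3, -0.69 and -0.25 for DDIT3, -0.65 and -0.27 for ATF4 and 0.06 and 0.71 for ATF5. The median over the 9 genes was -0.47, beside 0.056 over all genes.

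**Figure D2:**
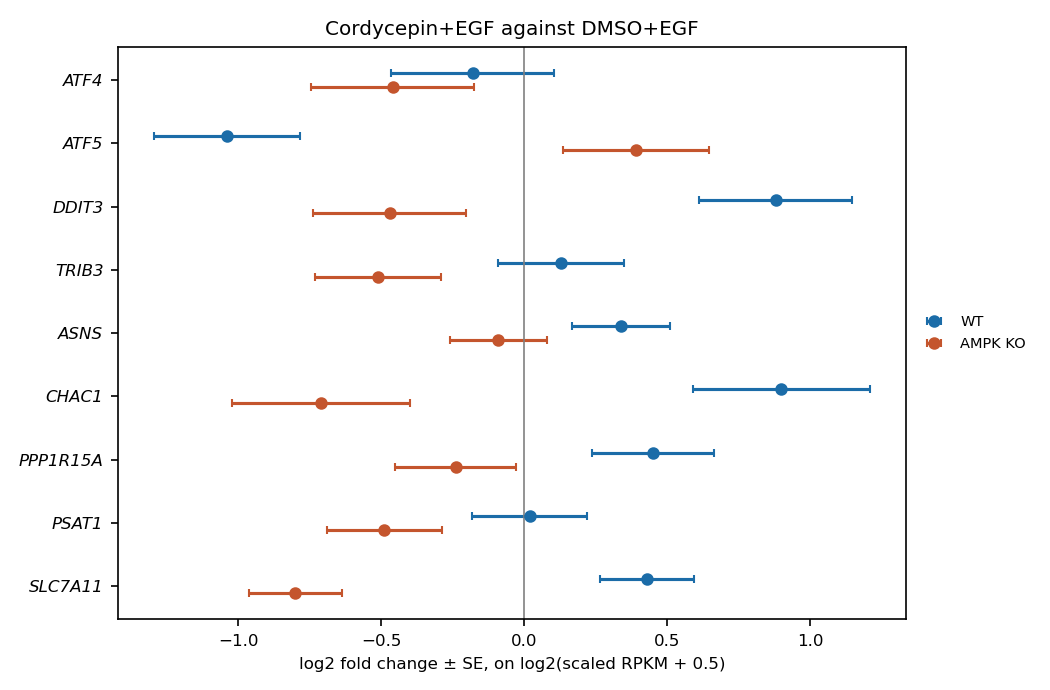
Log2 fold change of cordycepin+EGF against DMSO+EGF (horizontal axis) for each of the 9 genes (vertical axis), points with bars of 1 SE from the limma fit; blue is WT and orange AMPK KO. CHAC1 is at 0.90 in WT and -0.71 in AMPK KO, DDIT3 at 0.88 and -0.47, SLC7A11 at 0.43 and -0.80, and ATF5 goes the other way, at -1.04 and 0.39.

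Whether cordycepin acted differently in the 2 lines was tested as the difference between its log2 effect in AMPK KO and that in WT. The value was below 0 for 8 of the 9 genes and above 0 for ATF5. No gene of the 22067 passed this test with limma (0.0% called), while 5 of the 9 reached an unadjusted p under 0.05 (21.4% of all genes), and with voom, which called 9.44% of all genes, 4 passed, namely SLC7A11, DDIT3, CHAC1 and ATF5. SLC7A11 was at -1.23 ± 0.23 (95% interval -1.75 to -0.71, limma adjusted p = 0.122) and CHAC1 at -1.61 ± 0.44 (95% interval -2.6 to -0.61, limma adjusted p = 0.126). DDIT3 was at -1.36 ± 0.378 (limma adjusted p = 0.127) and ATF5 at 1.42 ± 0.361 (limma adjusted p = 0.123). PPP1R15A was at -0.69 ± 0.301 (limma adjusted p = 0.232). The remaining values were -0.64 ± 0.311 for TRIB3, -0.51 ± 0.284 for PSAT1, -0.43 ± 0.242 for ASNS and -0.28 ± 0.403 for ATF4. MARS1 stood at 1.55 ± 0.521, opposite to DDIT3, and NUP62 at 0.07 ± 0.179. The median over the 9 genes was -0.64, beside 0.019 over all genes.

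The last question was how AMPK KO cells differed from WT in each treatment. In DMSO, 6 of the 9 genes were higher in both AMPK KO than in both WT libraries, before scaling (26.4% of all genes were). These were ATF4, DDIT3, ASNS, CHAC1, PSAT1 and SLC7A11, while ATF5 was lower in both (22.1% of all genes). After upper-quartile scaling PSAT1 overlapped. None passed the test with limma (0.44% of all genes did), 3 reached an unadjusted p under 0.05, all higher (21.3% of all genes reached it in either direction), and these 3, DDIT3, CHAC1 and SLC7A11, passed with voom, which called 8.09% of all genes. DDIT3 was higher by 0.99 ± 0.268 (limma adjusted p = 0.108), CHAC1 by 0.95 ± 0.311 (limma adjusted p = 0.148) and SLC7A11 by 0.59 ± 0.163 (limma adjusted p = 0.11). ATF4 was at 0.40 ± 0.285, ASNS at 0.31 ± 0.171, PPP1R15A at 0.27 ± 0.213, PSAT1 at 0.09 ± 0.201, TRIB3 at 0.08 ± 0.22 and ATF5 at -0.56 ± 0.255. Without WT DMSO replicate 3, the shallow library, 4 of the 9 passed with limma, where 13.9% of all genes did: CHAC1 at 1.53 (adjusted p = 0.00945), PPP1R15A at 0.66 (adjusted p = 0.0187), SLC7A11 at 0.79 (adjusted p = 0.0228) and DDIT3 at 1.17 (adjusted p = 0.0498). Without WT DMSO replicate 2 instead, none passed (0.82% of all genes did), and CHAC1 was at 0.38, SLC7A11 at 0.40 and PPP1R15A at -0.12. Both fits leave WT DMSO with 1 library, assumed to vary like the other groups. The sizes in DMSO therefore rest on which WT DMSO library is used.

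In DMSO+EGF, SLC7A11 was higher in AMPK KO and passed the test, the only one of the 81 tests of these genes to do so. The difference was 0.83 ± 0.163, a ratio of 1.77 on this scale, with a 95% interval of 0.459 to 1.19 and a limma adjusted p of 0.0484. It was thus 1 of 9 genes, where 0.929% of all genes were called higher and 1.74% in either direction. The call lies at the threshold. The adjusted p ranged from 0.00482 to 0.0622 over 11 other settings, 6 of which kept it under 0.05. The 5 that did not were the deposited scale, median-ratio scaling, an untrended prior and both fits with a replicate block (adjusted p = 0.0544 over all libraries and 0.0588 within each line). It ranged from 0.125 to 0.279 when any 1 of the 4 libraries was left out, with differences of 0.65 to 1.0. At an unadjusted p under 0.05, CHAC1 was also higher, at 0.71 ± 0.311, and ATF5 lower, at -0.77 ± 0.255, so that 3 of 9 reached it, beside 22.5% of all genes. PPP1R15A was at 0.43 ± 0.213, DDIT3 at 0.49 ± 0.268, PSAT1 at 0.29 ± 0.201, TRIB3 at -0.43 ± 0.22, ASNS at -0.11 ± 0.171 and ATF4 at -0.08 ± 0.285. Separation of the libraries in deposited RPKM was 5 higher and 3 lower, against 30.0% and 32.8% of all genes. ASNS, 1 of the 3 lower, overlapped after upper-quartile scaling.

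In cordycepin+EGF the sign was the other way for most of the list, and 8 of the 9 genes were lower in AMPK KO than in WT. Both AMPK KO libraries were below both WT libraries for 6 of them (23.2% of all genes were), namely DDIT3, TRIB3, ASNS, CHAC1, PPP1R15A and SLC7A11, and ATF5 was above (22.4% of all genes). With limma none passed (0.118% of all genes did), 6 of 9 reached an unadjusted p under 0.05 (13.7% of all genes), and TRIB3 passed with voom, which called 1.5% of all genes. TRIB3 was at -1.07 ± 0.22, a ratio of 0.475 on this scale, with a 95% interval of -1.57 to -0.575 and a limma adjusted p of 0.153. CHAC1 was at -0.89 ± 0.311, DDIT3 at -0.87 ± 0.268, ASNS at -0.54 ± 0.171, SLC7A11 at -0.40 ± 0.163 and ATF5 at 0.66 ± 0.255. ATF4 was at -0.36 ± 0.285, PPP1R15A at -0.26 ± 0.213 and PSAT1 at -0.22 ± 0.201. With a library left out, DDIT3 ranged from -1.2 to -0.54 and ATF5 from 0.33 to 0.98. The median over the 9 genes was 0.31 in DMSO, 0.29 in DMSO+EGF and -0.40 in cordycepin+EGF, where over all genes it was 0.009, -0.005 and 0.014.

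**Figure D3:**
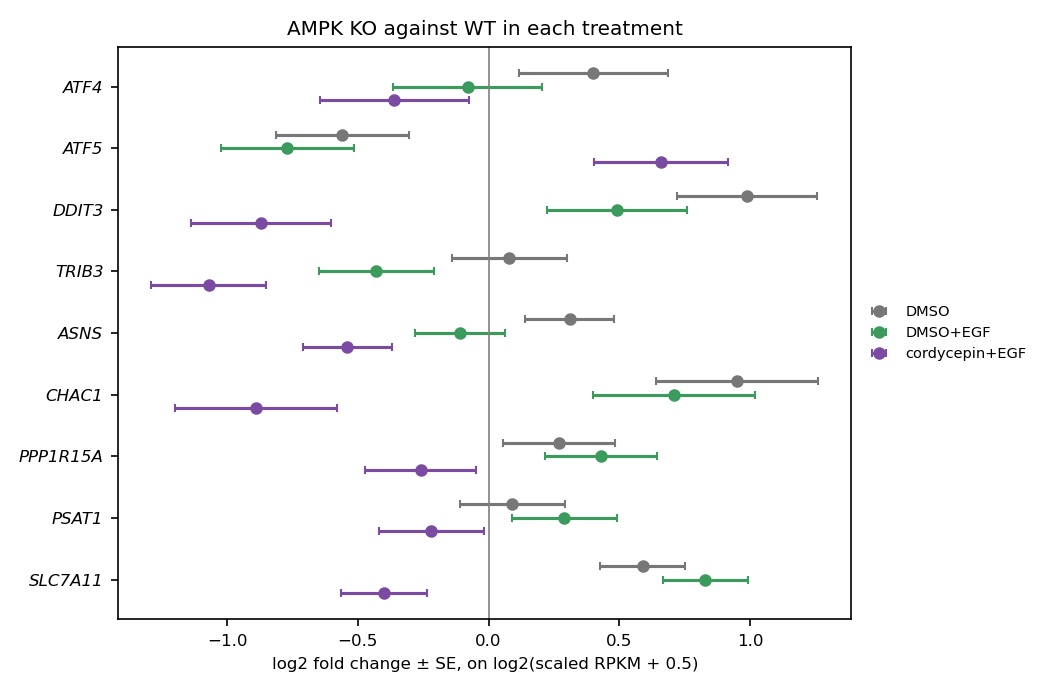
Log2 fold change of AMPK KO against WT (horizontal axis) for each of the 9 genes (vertical axis) in DMSO (grey), DMSO+EGF (green) and cordycepin+EGF (purple), points with bars of 1 SE from the limma fit. TRIB3 is at 0.08, -0.43 and -1.07, CHAC1 at 0.95, 0.71 and -0.89, and ATF5 at -0.56, -0.77 and 0.66.

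The rest of the pathway was read from a list of 80 further genes, of which 78 were in the table and 75 passed the filter. Only NARS1, the asparaginyl-tRNA synthetase gene, passed the limma test in any of the 9 comparisons, in AMPK KO against WT in DMSO+EGF, where it was higher by 0.87 ± 0.12 (adjusted p = 0.0199). That is 1 of 75, where 0.929% of all genes were called higher, a share near the background. NARS1 was at 27.5 and 31.1 RPKM in WT DMSO+EGF and 55.3 and 51.2 RPKM in AMPK KO DMSO+EGF. In DMSO it was also higher, at 0.66 ± 0.12 (limma adjusted p = 0.0538). Its level in AMPK KO cordycepin+EGF, 32.4 and 36.8 RPKM, was close to the 28.7 and 34.02 RPKM of WT cordycepin+EGF.

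Under cordycepin in AMPK KO, 50 of the 75 genes were lower and 25 higher, and 18 were lower and 1 higher at an unadjusted p under 0.05, where 10.1% and 11.7% of all genes were. Of the 12 aminoacyl-tRNA synthetase and tRNA export genes, which include MARS1 and NARS1, 10 were lower, with a median of -0.32. Under cordycepin in WT, 8 of these 12 were also lower and 4 higher, with a median of -0.08. Of the 13 genes of eIF2, its exchange factor eIF2B and the eIF2alpha phosphatases, 10 were lower in AMPK KO, with a median of -0.25. In WT, 6 of the 13 were lower and 7 higher, with a median of 0.05. ER chaperones, a readout of the unfolded protein response, gave 6 higher and 2 lower of 8 in AMPK KO, with a median of 0.09. At an unadjusted p under 0.05 with limma, 1 of these 8 was higher and 2 were lower. Over the whole list in WT, 43 of the 75 were higher and 32 lower, with a median of 0.03. Of the 9 members, 7 were higher there. KLHL24, a ubiquitin ligase adaptor, had the lowest value of the list under cordycepin in AMPK KO, at -0.90 ± 0.165 (limma adjusted p = 0.0574), going from 6.85 and 7.63 RPKM in DMSO+EGF to 3.4 and 3.64 RPKM. Its difference between lines was -1.34 ± 0.233 (limma adjusted p = 0.122).

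**Figure D4:**
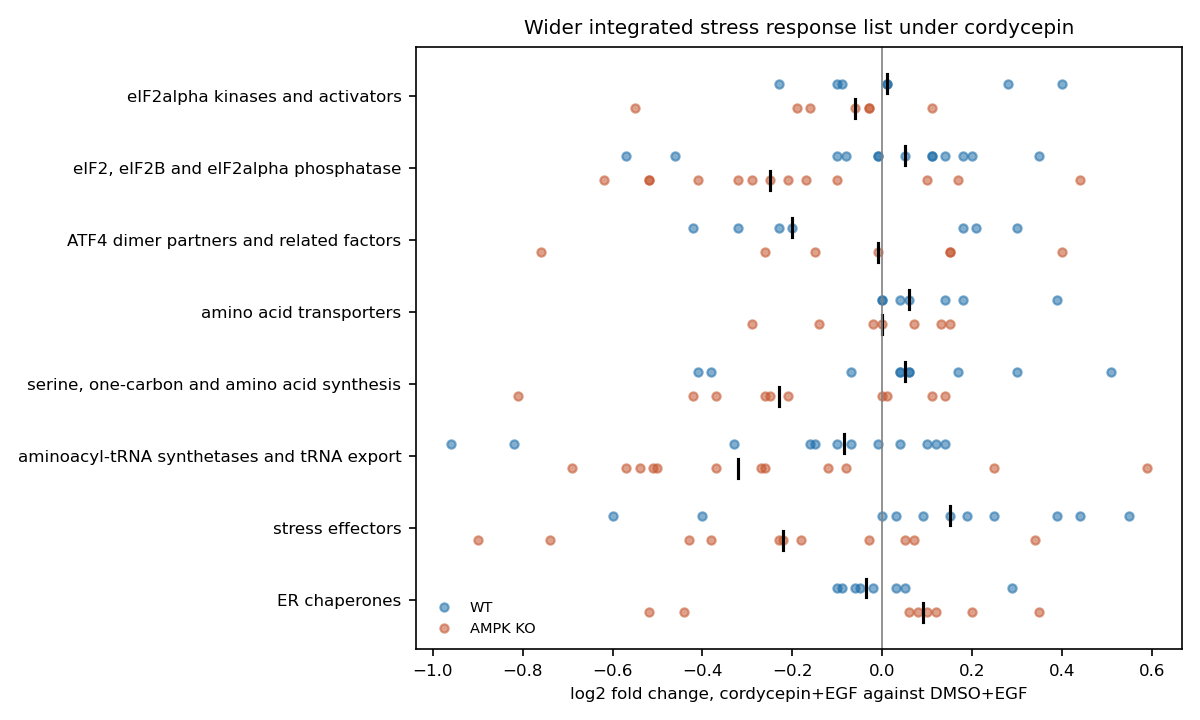
Log2 fold change of cordycepin+EGF against DMSO+EGF (horizontal axis) for the 75 tested genes of the wider list, 1 point per gene, by function (vertical axis); blue is WT, orange AMPK KO and black ticks are medians. The synthetase and tRNA export genes have a median of -0.08 in WT and -0.32 in AMPK KO.

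Other ends of the list follow the rule of naming its largest difference each way. In WT with EGF these were KLHL24 at -0.46 ± 0.165 and MARS1 at 0.70 ± 0.368, and in AMPK KO with EGF DDIT4, an inhibitor of mTORC1 signalling, at -0.27 ± 0.211 and OMA1, a mitochondrial protease, at 0.28 ± 0.173. STC2, a secreted stress-induced glycoprotein, was highest under cordycepin in WT, at 0.55 ± 0.232. MARS1 was lowest in AMPK KO against WT, at -0.82 ± 0.368 in DMSO and -1.23 ± 0.368 in DMSO+EGF. In cordycepin+EGF the ends were CEBPG, a dimer partner of ATF4, at -0.74 ± 0.2 and ALDH1L2, a mitochondrial folate enzyme, at 0.89 ± 0.175. BBC3, a pro-apoptotic BH3-only gene, and OMA1 had the extreme differences between lines in the EGF effect, at -0.79 ± 0.336 and 0.50 ± 0.244. None of these passed with limma, the lowest adjusted p among them being 0.103.

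Across the 12 libraries the 9 genes did not form a single pattern. As a description, on libraries that share their groups and differ in depth, Pearson r was 0.874 between CHAC1 and PPP1R15A, 0.823 between DDIT3 and CHAC1, 0.812 between CHAC1 and SLC7A11 and 0.804 between DDIT3 and ASNS. ATF4 was most like TRIB3 among the members (r = 0.709). ATF5 ran against most of them, with r of -0.88 with CHAC1, -0.803 with PPP1R15A, -0.783 with SLC7A11 and -0.768 with DDIT3. Among 18783 genes with a mean of at least 1 RPKM, the transcript most like each member over the 12 libraries was SHC1 for CHAC1 (r = 0.989), ZMIZ1 for ATF5 (0.98), TP53INP2 for PPP1R15A (0.98), ARF5 for ATF4 (0.975), PDP1 for SLC7A11 (0.974), PRKAR1A for PSAT1 (0.974), RECQL5 for DDIT3 (0.966), UBL4A for TRIB3 (0.947) and TMEM201 for ASNS (0.939). No member was the closest match of another.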

How the data were processed

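Total RNA from 12 cultures was depleted of ribosomal RNA and sequenced as stranded paired reads of 150 bases. The authors aligned reads to GRCh38.p13 and counted them with Rsubread (version and strand setting not given in the sources used here), discarded a replicate 1 as an outlier, and deposited 1 table of RPKM values per gene, the only file used. Its 2 rows that name no gene were left out. Whole reads (within 0.05) were recovered for 96.25% of genes at the annotated exon length of GENCODE release 44 and for 99.99% after a search for the length, including all 9 members.

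As in the study, RPKM was scaled by the upper quartile. Each library was divided by its upper quartile relative to the geometric mean of the upper quartiles, which keeps the RPKM scale. Values were log2-transformed with a pseudocount of 0.5 and filtered at a mean RPKM of 0.5. They were fitted with limma 3.58.1 in R 4.3.3 (group means, trended prior, 6 residual and 8.96 moderated degrees of freedom, two-sided). Tables used Python 3.11.15 and pandas 2.3.3. The code was tested on simulated data. Alternatives were the deposited scale, median-ratio scaling, pseudocounts of 0.1 and 1, other filters, an untrended prior, only the groups compared, replicate blocks, voom on recovered reads and leaving out each library. Intervals cover replicate spread only. The members, the wider list and the tests were chosen with earlier results of these data known. Named genes are the 9 members, any of the wider list past the threshold and its largest difference each way in each comparison, and the most alike transcript of each member.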

Additional observations from a re-analysis of the deposited data

Results flagged for a closer look

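For 5 results, both treated libraries lay outside both of their controls in deposited RPKM, in opposite directions in the 2 lines. The share of all genes doing so in both lines was not computed, so how unusual 5 such results are cannot be told. Under cordycepin, 25.7% of all genes were separated upwards in WT and 30.0% downwards in AMPK KO. With EGF these shares were 20.5% and 19.3%. The other way round, downwards in WT and upwards in AMPK KO, the shares were 27.8% and 29.2% under cordycepin. With EGF those were 16.0% and 19.2%. The nearest WT libraries for ASNS with EGF were at 2.588 RPKM in DMSO and 2.602 RPKM in DMSO+EGF. Their order reversed after the upper-quartile scaling used in the fits, so ASNS was not separated in WT on that scale. The difference between the lines was tested with limma in each case without passing 0.05. For cordycepin, the difference in log2 effect between AMPK KO and WT was -1.61 for CHAC1 (adjusted p = 0.126), -1.36 for DDIT3 (adjusted p = 0.127), -1.23 for SLC7A11 (adjusted p = 0.122) and -0.69 for PPP1R15A (adjusted p = 0.232). For EGF it was -0.43 for ASNS (adjusted p = 0.627). MARS1, which shares exon bases with DDIT3 on the opposite strand, was at 1.55, opposite in sign to DDIT3, and the part of the shared reads was not tested.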

How the results depend on the processing

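With 2 libraries a group and 23 to 264 reads on DDIT3, for example, modest differences could be missed. The size of difference that could be detected was not computed for these genes. Of 900 values under settings other than leaving out a library, 874 kept their direction and side of the threshold and 6 changed sign, as did 25 of 396 with a library left out. The number of members called in AMPK KO against WT in DMSO+EGF, 1 as reported, was 0 on the deposited RPKM, with median-ratio scaling, with an untrended prior and with any library left out (0 to 0), 3 with only the groups compared and 2 with voom. Replicate numbers were not taken to pair the samples, since differences between replicates correlated at 0.136 to 0.314 among WT groups but -0.122 to 0.031 among AMPK KO groups; with the replicate block, over all libraries or within each line, that number was 0, and no other count of members moved. A crossed block for cordycepin in AMPK KO, added after seeing the data, called 0. With voom, 1 was called for cordycepin in WT, 1 in AMPK KO, 3 in AMPK KO against WT in DMSO, 1 in cordycepin+EGF and 4 for the difference in cordycepin effect between lines, for which only the groups compared gave 2. The count in DMSO without each library ran from 0 to 4. Over all genes, calls in AMPK KO against WT were 97 in DMSO (1786 with voom, 3065 without WT DMSO replicate 3), 383 in DMSO+EGF (2480 with voom and 2215 with only the groups compared) and 26 in cordycepin+EGF (332 with voom), those for cordycepin were 1 in WT (910 with voom) and 104 in AMPK KO (1313 with voom), and those for its difference between lines 0 (2084 with voom and 1128 with only the groups compared); the cause was not tested. Leaving out a library moved 52 of the 81 differences by over 1.5 times. The sign of small values changed: PPP1R15A with EGF in WT was 0.012 on the deposited RPKM and 0.18 with voom, PSAT1 with cordycepin in WT was -0.027, -0.024 and -0.03 on the deposited RPKM, with median-ratio scaling and with voom, and the PPP1R15A difference in EGF effect was -0.043 with voom. Leaving out each library gave, for AMPK KO against WT, -0.12 to 0.66 for PPP1R15A and -0.082 to 0.25 for TRIB3 in DMSO, -0.36 to 0.19 for ATF4 in DMSO+EGF and -0.48 to 0.054 for PSAT1 in cordycepin+EGF. For EGF it gave, in WT, -0.55 to 0.6 for CHAC1, -0.4 to 0.37 for PPP1R15A, -0.3 to 0.023 for PSAT1 and -0.38 to 0.006 for SLC7A11, in AMPK KO -0.45 to 0.18 for ATF4, -0.45 to 0.012 for DDIT3, -0.026 to 0.15 for PSAT1 and -0.31 to 0.019 for TRIB3, and as differences between lines -0.53 to 0.11 for ATF5, -0.81 to 0.33 for CHAC1 and -0.23 to 0.54 for PPP1R15A. For cordycepin it gave -0.49 to 0.13 for ATF4, -0.16 to 0.2 for PSAT1 and -0.15 to 0.41 for TRIB3 in WT, -0.26 to 0.085 for ASNS in AMPK KO and -0.59 to 0.029 for ATF4 between lines.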
